A study of Sus scrofa with 6 samples.

Results

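The genes for the proteins of the cytosolic ribosome were read in peripheral blood mononuclear cells (PBMCs) of Yorkshire pigs. Members were the rows of the deposited table whose symbol begins with RPL or RPS and a digit, begins with RPLP or is RPSA, with the S6 kinase genes (RPS6K) left out. The rule found 56 of 11564 rows, and no symbol was on more than 1 row. RNA-seq had been run on 6 libraries from pigs 6 months of age, 3 labelled WT and 3 labelled Leptin-overexpressing (called leptin libraries here). WT pigs are described as nontransgenic. According to the study's methods, a vector with a pig leptin reading frame was put into fetal fibroblasts, and stably transfected cells were selected with neomycin. Pigs were made from these cells by nuclear transfer, so the transgenic animals descend from selected cultured cells. The paper's abstract and results name a leptin promoter, which its methods do not. The legend of its vector figure lists cytomegalovirus (CMV) among the abbreviations. The labels name no treatment. They give each library its own code without saying that each is a separate animal, and p-values therefore measure the spread between libraries.

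The cytosolic ribosome makes nearly all cellular protein. Its small subunit (RPS proteins) decodes the messenger RNA and its large subunit (RPL proteins) joins the amino acids, while the acidic P proteins form a stalk on the large subunit that recruits elongation factors. Ribosomal protein messenger RNAs are among the most abundant in lymphocytes, and their translation is controlled together through mTOR signalling. Many processed copies of these genes lie in mammalian genomes. Reads that fit several copies can be divided between rows, so the level of any single row below is uncertain to that extent.

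Members fell into 22 genes of the small subunit, 28 of the large subunit, 1 of the P stalk (RPLP2), 4 paralogs (RPS27L, RPL22L1, RPL26L1 and RPL7L1) and RPS19BP1, which the rule takes in by its name but which encodes a protein that binds RPS19. Of 79 textbook names of cytosolic ribosomal proteins (32 small subunit, 47 large subunit, RACK1 not counted), 51 were members. The other 28 were not analysed here as members. The deposited annotation put 43 members on the KEGG ribosome pathway, which held 45 rows in all. Members lay on 15 chromosomes, with 9 on chromosome 6 and 2 (RPS4X and RPL39) on X. Their loci were compact, with a median span of 4040 bp against 15867 bp over all rows.

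The labels and the FPKM totals touch every result below. The level of LEP, the gene the transgene adds, went against the label in both replicate 1 libraries. It was at 50.01 FPKM in WT replicate 1 and listed at 0 in leptin replicate 1, and the values in replicates 2 and 3 were listed at 0 and 0.118 FPKM in the WT libraries and 18.3 and 39.3 FPKM in the leptin libraries. Labels were kept, directions are those of the labels, and results are also given without both replicate 1 libraries. The 7 rows on chromosome Y summed to 176, 182 and 0.0657 FPKM in the WT libraries and to 98.6, 0.0829 and 0.00290 FPKM in the leptin libraries, so 2 WT libraries and 1 leptin library held RNA of that chromosome. The labels give no sex. The study's methods name a male fetus as the source of the donor fibroblasts, while leptin replicates 2 and 3 held almost no chromosome Y RNA. The paper states that the leptin pigs were made by nuclear transfer, and it describes no breeding of them. The reason for the low chromosome Y RNA in these libraries was not tested. FPKM totals ranged from 444888 to 449653 in the WT libraries and from 467276 to 503140 in the leptin libraries. The FPKM sum of the members is therefore also given as a share of its total. Sums of cell type markers are given in FPKM only and were not divided by these totals. FPKM (fragments per kilobase of transcript, scaled to the library's mapped fragments) can be compared between genes, and it holds no counts, so sequencing depth is unknown. Markers of T cells (7 of 7 symbols listed), B cells (5 of 6), NK cells (6 of 6) and monocytes (4 of 5) were above 0 in all 6 libraries, as were those of neutrophils (5 of 7), which the PBMC label does not cover. Whether the RNA of the neutrophil list came from neutrophils was not tested.

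Ribosomal protein genes took between 10.3% and 12.9% of every library's FPKM total. The 56 members summed to 45992, 52089 and 58140 FPKM in WT replicates 1, 2 and 3 and to 64393, 54965 and 58291 FPKM in leptin replicates 1, 2 and 3. As shares of the FPKM total these were 10.3%, 11.6% and 12.9% in the WT libraries and 12.9%, 10.9% and 12.5% in the leptin libraries. The groups overlapped, since the highest and the lowest share were both those of WT libraries. The mean share was 11.6% ± 1.30 (SD, n = 3) in the WT libraries and 12.1% ± 1.03 (SD, n = 3) in the leptin libraries, a difference of 0.470 percentage points that was smaller than the SD of either group. Without both replicate 1 libraries the direction turned, with a mean of 12.3% in the WT libraries and 11.7% in the leptin libraries, and it also turned without WT replicate 1 alone (a difference of -0.171 percentage points). Among the 3 libraries with chromosome Y RNA the difference, leptin minus WT, was 1.91 percentage points, and among the 3 without it was -1.24 percentage points, so the direction did not hold within both; each side has a single library of one label.

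**Figure D1:**
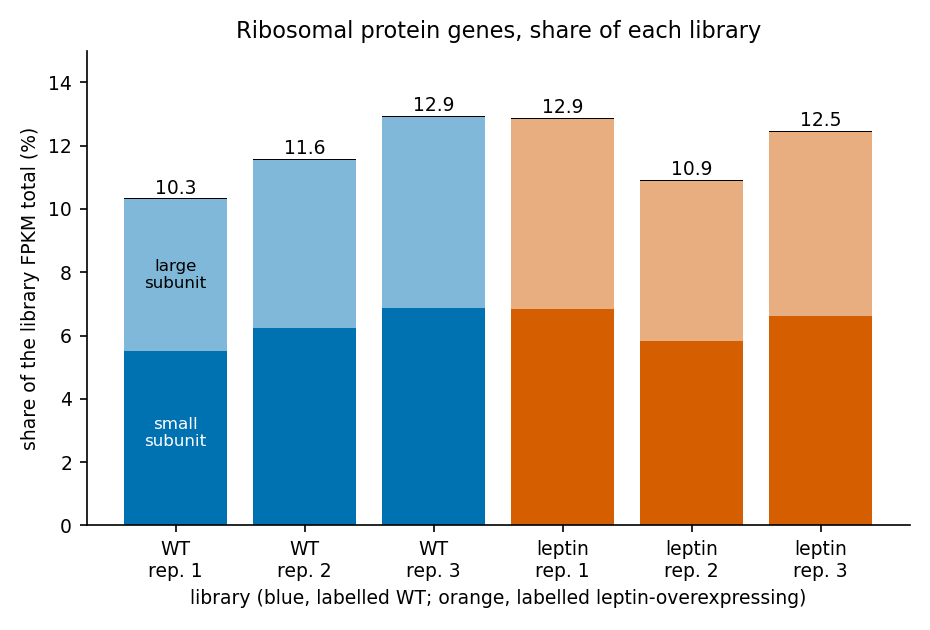
Share of the FPKM total (percent) taken by the ribosomal protein genes in each library, labelled WT in blue and leptin-overexpressing in orange, with small-subunit genes in the dark and large-subunit genes in the pale part of each bar. The shares run from 10.3% in WT replicate 1 to 12.9% in WT replicate 3, and the groups overlap.

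The choice of total changed the size of the group difference. A single row with a locus of 70 bp and no symbol was at 11837 to 22538 FPKM in 5 libraries and listed at 0 in WT replicate 3, where it took 0% of the total against 2.63% to 4.50% elsewhere. With the total taken without the 220 rows whose locus is under 300 bp, the shares were 10.98%, 12.1% and 13.1% in the WT libraries and 13.9%, 11.4% and 13.1% in the leptin libraries. Leptin replicate 1 then stood highest in place of WT replicate 3, and WT replicate 1 stayed lowest. The difference of the group means, leptin minus WT, was 0.773 percentage points with that total and 0.922 percentage points with a total without the 20 highest rows that are no members, against 0.470 with the whole total.

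Both subunits kept step with each other. The summed level of the small-subunit genes divided by that of the large-subunit genes was 1.14, 1.17 and 1.14 in the WT libraries and 1.14, 1.16 and 1.14 in the leptin libraries. The mean ratio was 1.15 in both groups, with an SD of 0.0158 among the WT and 0.00850 among the leptin libraries (n = 3 each), so the groups overlapped and differed by less than their spread. It is a ratio of the genes listed here, not of whole subunits, since textbook names of both are missing from the sums.

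The share of ribosomal protein RNA lay in nearly the opposite order to the summed level of neutrophil markers (S100A8, S100A9, S100A12, MMP8 and MMP9). Their sum was 3502 FPKM in WT replicate 1, the library of lowest ribosomal protein share, and 1258 FPKM in leptin replicate 2, the next lowest. It was 687 FPKM in WT replicate 2, 631 FPKM in leptin replicate 3, 407 FPKM in leptin replicate 1 and 410 FPKM in WT replicate 3, the library of highest share. S100A8, S100A9 and S100A12 carried that sum, while MMP9 was highest in leptin replicate 2 (225 FPKM) and lowest in WT replicate 2 (38.5 FPKM). MMP8 was at 0.0329 to 9.74 FPKM, and it was lower in leptin replicate 2 (0.852 FPKM) than in leptin replicate 3 (1.20 FPKM). Monocyte markers (CD14, LYZ, CSF1R and CD163) summed to 771 and 777 FPKM in WT replicate 1 and leptin replicate 2 and to 330 to 544 FPKM in the other 4 libraries. CD14 and LYZ carried that sum, while CSF1R was highest in leptin replicate 1 (73.8 FPKM) and CD163 was at 0.824 to 1.76 FPKM, lowest in leptin replicate 2. B cell markers were lowest in WT replicate 1, at 380 FPKM against 550 to 676 FPKM elsewhere. T cell markers did not follow the order, with 917 FPKM in WT replicate 1 and 601 FPKM in leptin replicate 2. WT replicate 1 was also the highest library for the sum of NK cell markers (575 FPKM against 236 to 548 FPKM). GNLY carried that sum (403 FPKM), while NCR1, KLRB1, KLRK1, NKG7 and PRF1 were each highest in another library. Its erythroid marker sum was the highest too (2 of 7 symbols listed, 217 FPKM against 21.8 to 102 FPKM). HBB carried it (211 FPKM), while ALAS2 was highest in leptin replicate 2 (6.86 FPKM). The same library was highest for the platelet marker sum (4 of 5 symbols listed, 409 FPKM against 116 to 369 FPKM), though GP1BA was highest in WT replicate 3 (6.42 FPKM). The part of cell makeup in the ribosomal protein share was not tested. In bulk libraries fewer cells of a type and less RNA per cell cannot be told apart.

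**Figure D2:**
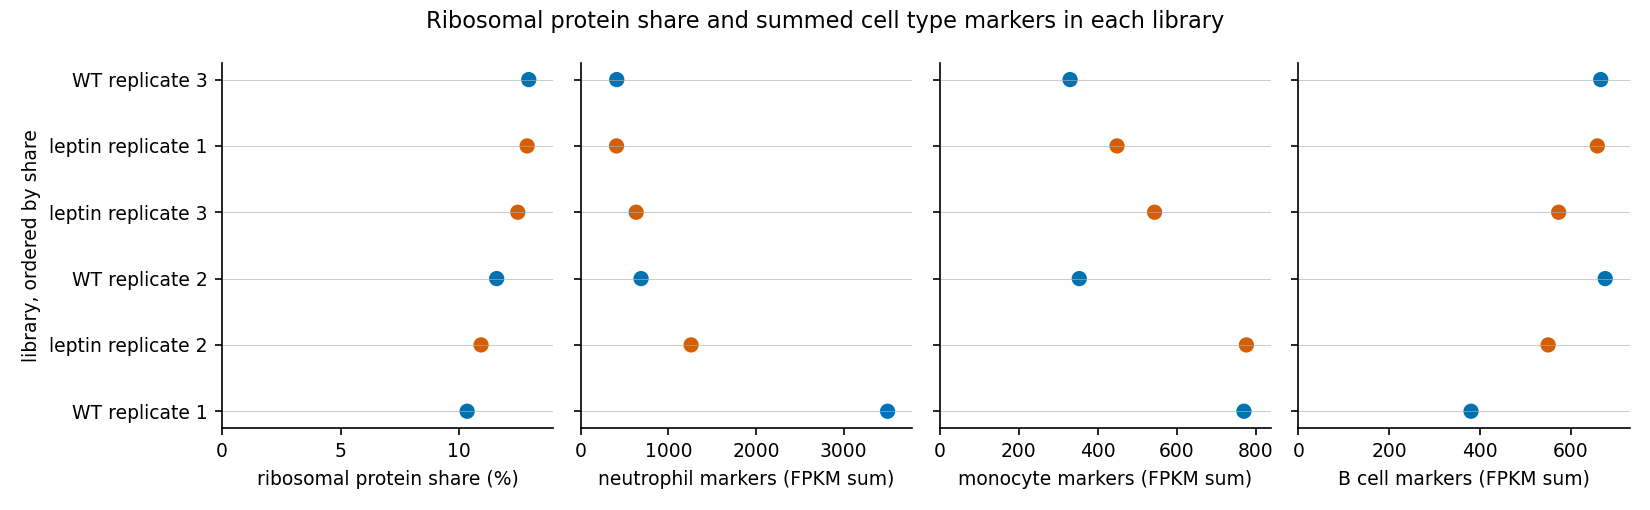
Ribosomal protein share (percent) and the summed FPKM of neutrophil, monocyte and B cell markers in each library, with libraries ordered by the share and coloured by label (WT blue, leptin-overexpressing orange). WT replicate 1 and leptin replicate 2 have the lowest shares and the highest neutrophil marker sums (3502 and 1258 FPKM).

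Levels differed far more between genes than between libraries. The mean over 6 libraries had a median of 892 FPKM over the members (quartiles 339 and 1284 FPKM), against 7.96 FPKM over all rows of the table. Members made up 17 of the 50 rows of highest mean, 33 of the top 100 and 42 of the top 200. A mean of at least 1000 FPKM was seen for 24 members, of 67 rows in all, and a mean of at least 100 FPKM for 46 members. Among those 46 the highest mean was 25.9-fold the lowest. Among the 54 members that passed the filter on low values (1 FPKM or more in 3 or more libraries), the highest library was 1.41-fold the lowest for the median gene, and 43 members stayed under 1.5-fold. On a log2(FPKM + 1) scale the SD between those genes was 2.20 to 2.30 in each library, while the SD between libraries of one label had a median of 0.161 over the genes. That SD had a median of 0.219 over all 10735 rows that passed the filter and 0.219 over the 655 other rows with a mean of at least 100 FPKM. The order of the 56 members was nearly the same in every library, with Spearman's rho between 0.981 and 0.997 over the 15 pairs of libraries (a description across genes that share transcript lengths and alignment).

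**Figure D3:**
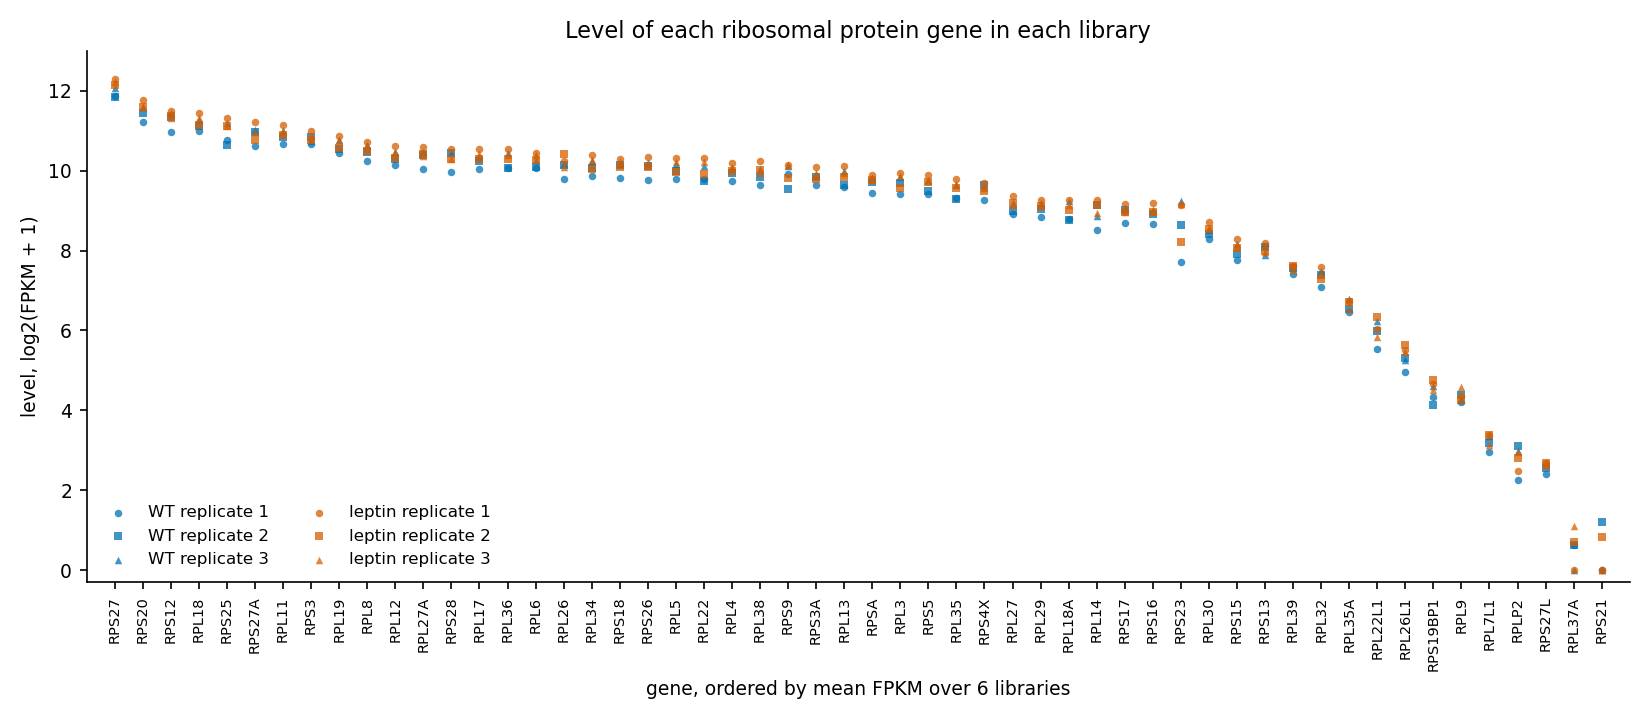
Level of 54 of the 56 genes in each library as log2(FPKM + 1), genes ordered by mean FPKM, points coloured by label (WT blue, leptin-overexpressing orange) and shaped by replicate number. The points of a gene lie close together beside the range across genes, which runs from RPS27 down to RPL37A and RPS21, both listed at 0 in some libraries.

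RPS27, a zinc finger protein of the small subunit, was the highest member in all 6 libraries and ranked 7 among all rows. RPS27 (ENSSSCG00000006558, chromosome 4 from 104599235 to 104600403 as numbered in the deposited table, whose build is not named) was at 3720, 3642 and 4319 FPKM in the WT libraries and 5045, 4518 and 4731 FPKM in the leptin libraries. Every leptin library lay above every WT library, also after median-of-ratios scaling (each library divided by the median ratio of its rows to their geometric mean), but not with the libraries scaled to equal FPKM totals, where WT replicate 3 (4509) lay above leptin replicate 2 (4213). The WT mean was 3894 ± 370 FPKM and the leptin mean 4765 ± 265 FPKM (SD, n = 3 each). On the log2 scale leptin minus WT was 0.29 ± 0.14 (standard error; limma, adjusted p = 0.993), so the difference did not pass the test.

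RPS20 of the small subunit was also among the highest members. RPS20 (ENSSSCG00000006249, chromosome 4 from 82679935 to 82681181) was at 2397, 2763 and 3063 FPKM in the WT libraries against 3495, 3113 and 3073 FPKM in the leptin libraries, with no overlap here and after median-of-ratios scaling, but with overlap at equal FPKM totals. Its log2 difference, leptin minus WT, was 0.24 ± 0.15 (standard error; limma, adjusted p = 0.993). That difference fell to 0.15 without WT replicate 1 and to 0.088 without both replicate 1 libraries. RPS12, also of the small subunit, had a mean of 2566 FPKM, and RPL18 was the highest of the large subunit with 2384 FPKM.

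At the other end, RPL37A of the large subunit and RPS21 of the small subunit were almost absent by their rows. RPL37A (ENSSSCG00000021978, chromosome 14 from 100785656 to 100785923, the shortest locus of the members at 268 bp) was at 0.552, 0.552 and 0 FPKM in the WT libraries and 0, 0.638 and 1.14 FPKM in the leptin libraries. RPS21 (ENSSSCG00000021825, chromosome 17 from 69172954 to 69173861) was listed at 0 in 4 libraries and was at 1.32 FPKM in WT replicate 2 and 0.772 FPKM in leptin replicate 2. These were the 2 members that did not pass the filter, and neither was tested. RPL9, a large-subunit protein, was also low, at 17.4 to 23.2 FPKM.

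The row named RPLP2 was low as well. RPLP2 (ENSSSCG00000002850, chromosome 6 from 33613002 to 33613350) was at 3.76, 7.67 and 6.86 FPKM in the WT libraries and 4.56, 5.98 and 6.72 FPKM in the leptin libraries, with overlap. A row without a symbol, ENSSSCG00000012842 on chromosome 2 from 164438 to 166560, is named RPLP2 in the gene name table used here, and it was at 1162, 1363 and 1506 FPKM in the WT libraries and 1633, 1299 and 1501 FPKM in the leptin libraries, with overlap (log2 difference 0.14 ± 0.16, standard error; limma, adjusted p = 0.993). That table names 2 more rows without a symbol as ribosomal protein genes. ENSSSCG00000004970, named RPLP1, the partner of RPLP2 in the stalk, was at 1321, 1650 and 1586 FPKM against 1908, 1855 and 1712 FPKM, with no overlap as deposited but with overlap after either scaling (log2 difference 0.27 ± 0.15, standard error; limma, adjusted p = 0.993). ENSSSCG00000020817, named RPS16, was at 1017 to 1227 FPKM and 1170 to 1382 FPKM, while the member row RPS16 had a mean of 499 FPKM. With these 3 rows added, the share ranged from 11.1% to 13.9% over the libraries, and the order of the libraries by share was the same as without them. The gene name table held 23 of the members' identifiers, and all 23 names equalled the symbols.

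For 3 of the paralogs the gene they resemble was also a member, and each of these ran well below it. RPS27L was at 4.34, 4.89 and 5.42 FPKM in the WT libraries and 5.45, 5.46 and 5.06 FPKM in the leptin libraries, and RPS27 was 745 to 936 times as high. RPL22, whose loss in mice impairs the development of T cells, was at 885, 859 and 1115 FPKM in the WT libraries and 1263, 957 and 1187 FPKM in the leptin libraries. Its paralog RPL22L1 was at 45.6, 62.4 and 74.0 FPKM and 64.1, 79.1 and 55.9 FPKM, and the ratio of the pair ran from 12.1 in leptin replicate 2 to 21.2 in leptin replicate 3. RPL22 and RPL22L1 thus did not order the libraries alike: leptin replicate 2 was highest for RPL22L1 and lay in the lower part of the range for RPL22. RPL26L1 (ENSSSCG00000016989, chromosome 16 from 55580785 to 55590313) was at 30.2, 38.4 and 37.6 FPKM in the WT libraries and 44.5, 49.0 and 43.0 FPKM in the leptin libraries, with no overlap. RPL26 was at 877, 1134 and 1151 FPKM and 1210, 1366 and 1094 FPKM, with overlap, and was 25.5 to 30.6 times as high as RPL26L1. RPL7L1 lay between 6.77 and 9.51 FPKM in all libraries.

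When libraries were set against each gene's own mean, members were low and high together. In WT replicate 1, only 1 of the 54 members was above its mean over 6 libraries, the gene RPS13, beside 29.8% of all rows tested. In WT replicates 2 and 3 it was 15 and 47 members, beside 41.4% and 64.8% of all rows. In leptin replicates 1, 2 and 3 it was 53, 24 and 40 members, beside 70.8%, 39.0% and 56.8% of all rows. WT replicate 1 was the lowest library for 46 members and leptin replicate 1 the highest for 44. Over all rows tested, these libraries were lowest for 37.5% and highest for 28.0%. After division by the library total, WT replicate 1 was still the lowest for 35 members, while WT replicate 3 was the highest for 29 and leptin replicate 1 for 12. On the FPKM scale the 2 libraries at the ends were thus the pair in which LEP went against the label.

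**Figure D4:**
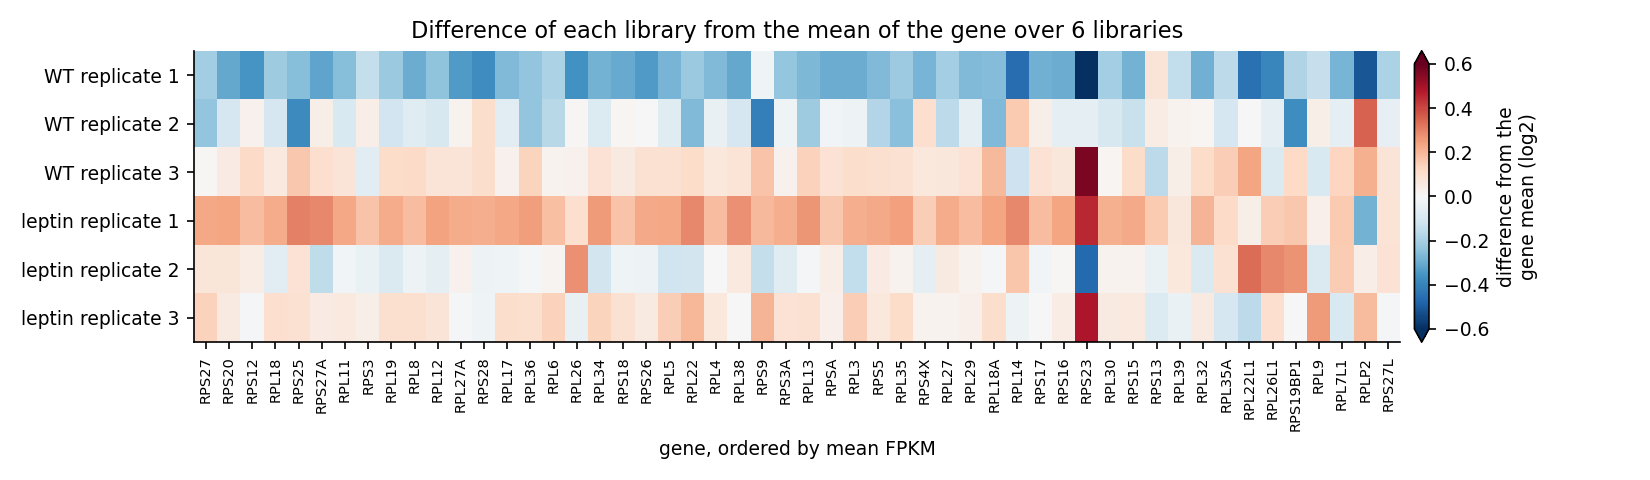
Difference of each library from the mean of the gene over 6 libraries, in log2(FPKM + 1), for 52 of the 54 genes tested, ordered by mean FPKM (red above, blue below, colour scale ends at 0.6 in each direction). WT replicate 1 is blue in nearly every column, leptin replicate 1 is red in nearly every column, and RPS23 has the strongest colours.

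RPS23, which sits at the decoding centre of the small subunit, varied most of all members. RPS23 (ENSSSCG00000014133, chromosome 2 from 92675094 to 92676828) was at 207, 396 and 607 FPKM in the WT libraries and 562, 296 and 576 FPKM in the leptin libraries. WT replicate 3, leptin replicate 1 and leptin replicate 3 lay high, leptin replicate 2 and WT replicate 1 low, and the groups overlapped. Its highest library was 2.93-fold the lowest, and its within-label SD on the log2 scale was 0.671. The log2 difference of RPS23 was 0.31 ± 0.41 (standard error; limma, adjusted p = 0.993) and turned to -0.25 without both replicate 1 libraries. RPL39, a small protein near the exit tunnel, varied least, with 168, 190 and 191 FPKM in the WT libraries and 196, 195 and 182 FPKM in the leptin libraries.

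The comparison of labelled genotypes called no member at an adjusted p under 0.05. Across all 10735 rows tested by limma on log2(FPKM + 1), 0.00932% were called higher and 0% lower in the leptin libraries at that limit, and of the 54 members tested 0 were. At an unadjusted p under 0.05, 1 member was higher, beside 1.98% of all rows, and 0 were lower, beside 1.19%. The member was RPL26L1, with 35.4 ± 4.50 FPKM in the WT libraries and 45.5 ± 3.15 FPKM in the leptin libraries (mean ± SD, n = 3 each). The log2 difference of RPL26L1 was 0.36 ± 0.15 (standard error; limma, unadjusted p = 0.0485, adjusted p = 0.993). No member was higher at the unadjusted p in 11 of 15 alternative fits, among them both scalings and 5 of the 6 fits that leave out a single library (all but that without WT replicate 3). The 3 leptin libraries lay above the 3 WT libraries for 4 members (7.41% of those tested), RPS27, RPS20, RPL30 and RPL26L1, beside 5.0% of all rows. That count moved with the scaling, to 18 of 54 members beside 4.88% of all rows after median-of-ratios scaling and to 1 member, RPL26L1, beside 1.44% with equal FPKM totals. The reverse was seen for 0 members, beside 2.63% of all rows. With 3 libraries a side, an exact permutation test (two-sided) cannot give a p below 0.1, the value these 4 genes had.

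Differences of the members were small and mostly of one sign. The log2 fold change was above 0 for 53 of 54 members and had a median of 0.17, beside a median of 0.059 and 63.1% above 0 over all rows. The median was 0.079 without WT replicate 1, with 46 of 54 members above 0 (all rows 0.0066 and 51.6%), 0.11 without leptin replicate 1, with 53 of 54 above 0 (all rows 0.022 and 54.7%), and 0.25 without WT replicate 3. It was above 0 for 51 members, with a median of 0.10, after median-of-ratios scaling, which moved the median of all rows to 0.0022. With each library scaled to an equal FPKM total, it was above 0 for 43 members, with a median of 0.040, beside -0.053 over all rows. Without both replicate 1 libraries it was above 0 for 37 of 54, with a median of 0.018 beside -0.032 over all rows. Small-subunit genes had a median of 0.16 (21 of 21 above 0) and large-subunit genes one of 0.18 (27 of 27 above 0). With equal FPKM totals these were 0.026 (15 of 21) and 0.053 (24 of 27), and without both replicate 1 libraries 0.0092 (12 of 21) and 0.037 (22 of 27). Among the libraries with chromosome Y RNA, 53 of 54 members were above 0 (median 0.38, beside 0.19 over all rows), and among those without it 13 of 54 were (median -0.058, beside -0.086). With chromosome Y RNA as a second term in limma the median was 0.16.

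**Figure D5:**
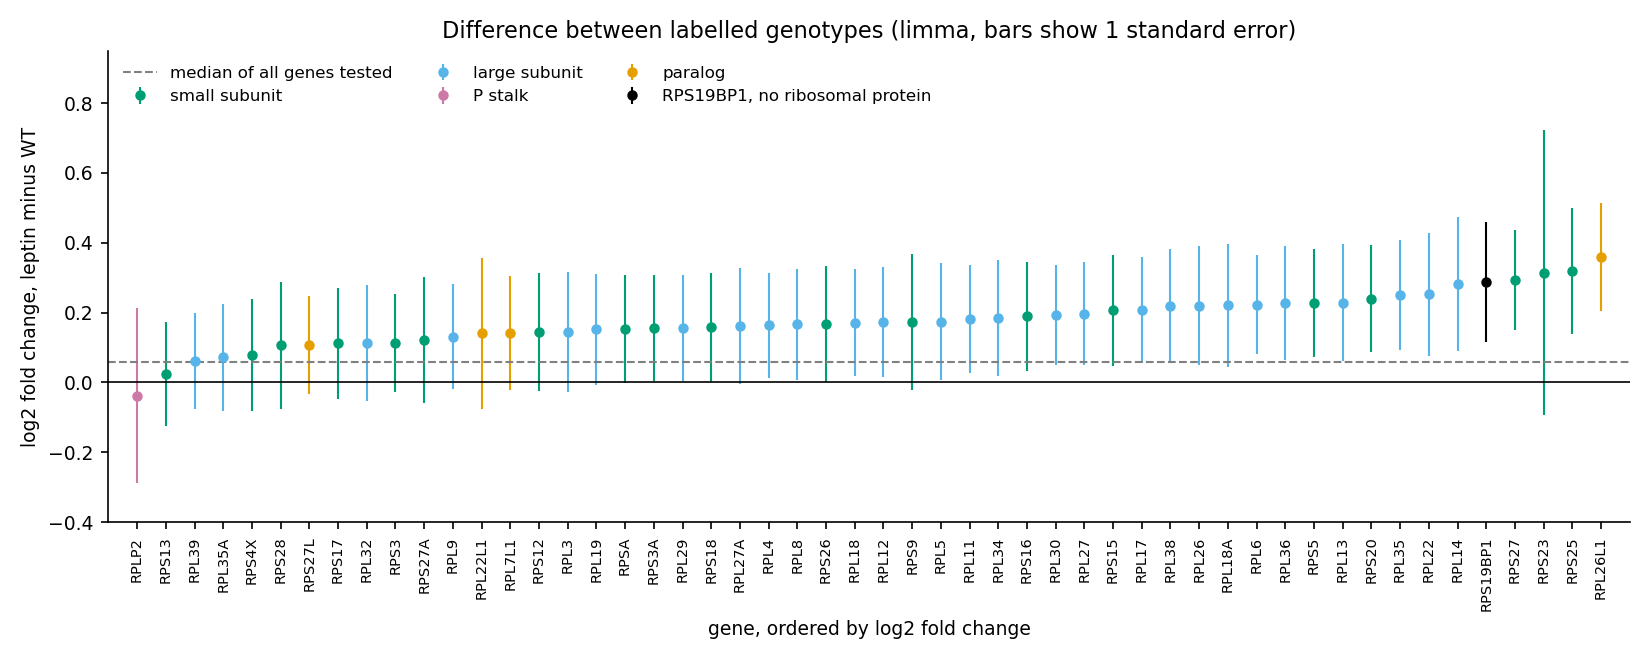
Log2 fold change (leptin minus WT, on log2(FPKM + 1)) of 52 of the 54 genes tested, with bars of 1 standard error from limma, coloured by the part of the ribosome. On FPKM as deposited all but RPLP2 lie above 0 (51 of 54 genes after median-of-ratios scaling and 43 with equal FPKM totals), most also above the dashed line at the median of all genes tested (0.059), and no gene passed an adjusted p of 0.05.

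The largest differences after RPL26L1 were those of RPS25 (0.32, standard error 0.18), RPS23, RPS27 and RPS19BP1 (0.29, standard error 0.17), each with an adjusted p of 0.993 in limma. RPS25, a small-subunit protein that some viral messages need for initiation, was at 1738, 1594 and 2326 FPKM in the WT libraries and 2565, 2206 and 2211 FPKM in the leptin libraries, with overlap. RPS19BP1 was at 19.0, 16.5 and 23.6 FPKM and 24.4, 26.3 and 21.7 FPKM, with overlap. The smallest values were those of the low row named RPLP2 (-0.037, standard error 0.25, against 0.14 for the abundant row that the gene name table calls RPLP2), RPS13 (0.024), RPL39 (0.062), RPL35A (0.072) and RPS4X (0.079), and none passed the test. RPS13 and RPL39 lay below 0 after median-of-ratios scaling, and RPS13, RPL39, RPL35A and RPS4X did with equal FPKM totals. RPS13 was at 276, 270 and 234 FPKM in the WT libraries and 292, 254 and 247 FPKM in the leptin libraries, with WT replicate 1 above the other WT libraries. RPS4X, which is X-linked (as is RPL39), was at 609, 792 and 772 FPKM and 820, 713 and 751 FPKM. RPSA, also known as the laminin receptor, was at 690, 837 and 899 FPKM and 947, 871 and 865 FPKM. Its log2 difference was 0.15 ± 0.15 (standard error; limma, adjusted p = 0.993). That difference fell to 0.043 without WT replicate 1 and to 0.0015 without both replicate 1 libraries.

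Several member loci hold or overlap other rows. Short RNA rows lay inside 5 members, as snoRNA genes lie in the introns of ribosomal protein genes. SNORD21, inside RPL5, was at 871 FPKM in WT replicate 2 and listed at 0 in the other 5 libraries, while RPL5 itself was at 889 to 1147 FPKM in the WT libraries and 992 to 1266 FPKM in the leptin libraries. The libraries were strand-specific by their labels, but whether strand was used in counting is not given in the sources used here, so the levels of overlapping genes are uncertain.

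Other genes of the translation machinery were read from lists. Of 51 mitochondrial ribosomal protein genes tested, 0 passed the adjusted p in either direction (limma), 1 was higher and 0 were lower at the unadjusted p (beside 1.98% and 1.19% of all rows), and 51 were above 0 with a median log2 fold change of 0.19 (beside 63.1% and 0.059 over all rows). After scaling to an equal FPKM total 41 of these were above 0 (median 0.082), beside 37.4% of all rows (median -0.053). The gene was MRPS33, at 24.8, 24.5 and 29.3 FPKM in the WT libraries and 37.3, 30.9 and 40.4 FPKM in the leptin libraries, a log2 difference of 0.45 ± 0.16 (standard error; limma, unadjusted p = 0.0241, adjusted p = 0.993). Of 64 ribosome biogenesis genes tested, 0 passed the adjusted p and 1 was higher at the unadjusted p, beside 1.98% of all rows, UTP11L (0.39, standard error 0.15, unadjusted p = 0.0333, adjusted p = 0.993, limma). The list median was 0.14, moved to 0.029 without WT replicate 1 and to 0.24 without WT replicate 3, and was 0.021 with equal FPKM totals. UTP11L encodes a factor of small-subunit assembly and was at 22.9 to 30.4 FPKM in the WT libraries and 33.9 to 36.8 FPKM in the leptin libraries.

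Among factors that work on the ribosome, of 7 elongation and termination genes tested, 0 passed either threshold in limma (lowest adjusted p = 0.993). Over all rows, 1.98% were higher and 1.19% lower at the unadjusted p. The list median was 0.064, beside 0.059 over all rows. EEF1A1, which brings aminoacyl-tRNA to the ribosome, was at 3687, 4628 and 3968 FPKM in the WT libraries and 4470, 3968 and 4364 FPKM in the leptin libraries, with overlap. Of 34 initiation factor and poly(A)-binding protein genes tested, 0 passed either threshold, beside 1.98% higher and 1.19% lower at the unadjusted p over all rows. Their log2 fold change was above 0 for 29, with a median of 0.085 (beside 63.1% and 0.059 over all rows). With equal FPKM totals 10 of the 34 were above 0, beside 37.4% of all rows. The EIF1AX row on chromosome Y, 1 of these 34, was listed at 0 in the 3 libraries without RNA of that chromosome and was at 15.3 and 14.9 FPKM in WT replicates 1 and 2 and 9.89 FPKM in leptin replicate 1. Of 4 ribosome-associated genes tested 0 passed either threshold, beside the same 1.98% and 1.19% of all rows at the unadjusted p. Their median was 0.098, beside 0.059 over all rows. All 4 were above 0 on FPKM as deposited, and 1 of the 4 was with equal FPKM totals. Of 28 genes of mTOR and S6 kinase signalling tested, 0 passed the adjusted p, 0 were higher and 1 was lower at the unadjusted p (beside 1.98% and 1.19% of all rows), and the median was 0.025, beside 0.059 over all rows. RICTOR, a subunit of mTOR complex 2, was that gene, at 6.17, 5.23 and 6.25 FPKM in the WT libraries and 3.36, 3.38 and 5.45 FPKM in the leptin libraries, with overlap (log2 difference -0.46 ± 0.19, standard error; limma, unadjusted p = 0.0409, adjusted p = 0.993). With an equal FPKM total the medians of these 4 lists were below 0, as was that of all rows (-0.053).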

How the data were processed

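PBMC RNA of 6 libraries, 3 labelled WT and 3 labelled leptin-overexpressing, was analysed from 1 table. The authors deposited FPKM per gene and library. The paper names Bowtie, the ENSEMBL version 75 transcriptome and RSEM for paired-end reads of 101 bp, whereas the submitters' processing notes name FastQC, STAR 2.5, Cuffnorm and DESeq 1.22.1, so the tools behind these values are not settled, and no genome build is given. The table also holds a log2 fold change, p-values and FDR of the authors' own comparison (log2 values and p-value columns as deposited), which were not used. Columns were matched to samples by the code in their names, and 0 columns of per-sample values were left out.

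Members were found by symbol. Shares are sums of FPKM over the library's FPKM total. Groups were compared with limma 3.58.1 in R 4.3.3 (lmFit and eBayes, trend and robust off) on log2(FPKM + 1), genotype only, over the 10735 rows at 1 FPKM or more in 3 or more libraries. Tests were two-sided and p-values were adjusted by Benjamini-Hochberg over all of these rows. The fit was tested on simulated data in which 200 genes were changed by far more than the members differ here. Noise was drawn independently for each gene. That test does not show whether differences of the size seen here would be found. Python 3.11.15 and SciPy 1.17.1 gave the exact permutation tests. Members and gene lists were chosen with earlier results of these data known. Named members are those of the P stalk and RPSA, the 5 highest and 5 lowest levels, the 5 highest and 5 lowest log2 fold changes, members with an unadjusted p under 0.05 or a 0, paralog pairs, and RPS19BP1; RPL30, RPL5, RPL9 and the rows without a symbol were singled out after their values were seen. Alternatives were another pseudocount (0.1), no or a stricter filter, 2 scalings, no moderation, a replicate block, chromosome Y RNA as a term and leaving out libraries. Some genes that this rule or the lists take in are not reported here by name and are not drawn in the plots by gene. No sequence is shown, as no sequence table was used here. Precision rests on 3 libraries per label.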

Additional observations from a re-analysis of the deposited data

How the results depend on the processing

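Sequencing depth is unknown, and with 3 libraries per label the fit could have missed differences of the size seen here. No member passed an adjusted p of 0.05 under any of the 15 alternatives to the limma fit, and the median log2 difference of the members stayed above 0 in all of them, between 0.018 and 0.25. Over these alternatives, the 19 named members kept their direction in 262 refits and turned in 23 (10 members). The cause of each shift was not tested. The planned ratio with paralogs left out equals the ratio given, which holds none, and paralogs were added instead, a choice made after seeing the data, as were equal FPKM totals and the split by chromosome Y RNA. Among libraries with that RNA the difference in share was 1.91 percentage points and the median of the members 0.38; among those without, the share difference was -1.24, the subunit ratio difference 0.00945 and the median -0.058. With that RNA as a term, 0 members were higher at the unadjusted p, beside 0.941% of all rows.

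Without replicate 1 of both groups, the difference in share was -0.562 percentage points, the median of the members 0.018, no-overlap counts 4 higher beside 10.4% of all rows and 4 lower beside 15.5%, and members higher at an unadjusted p under 0.05 were 0, beside 0.997%. The log2 difference was then -0.030 for RPL22L1, -0.029 for RPL35A, -0.016 for RPL39, -0.0052 for RPL7L1, -0.054 for RPS12, -0.0048 for RPS13, -0.25 for RPS23 and -0.096 for RPS4X. List medians were -0.020 for ribosome-associated genes, -0.053 for elongation, -0.013 for initiation, -0.036 for biogenesis and -0.069 for mTOR signalling. The median of the mitochondrial ribosomal protein genes stayed above 0 under all 10 alternatives run for it, between 0.056 and 0.29.

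With equal FPKM totals, 0 members were higher at the unadjusted p, beside 0.764% of all rows, and 1 without overlap. The log2 difference was -0.056 for RPL35A, -0.067 for RPL39, -0.11 for RPS13, -0.00091 for RPS27L and -0.050 for RPS4X. Medians were -0.020 for ribosome-associated genes, -0.048 for elongation, -0.036 for initiation and -0.076 for mTOR signalling. After median-of-ratios scaling, 0 members were higher at the unadjusted p, beside 1.56%, and 18 without overlap, and the value was -0.0040 for RPL39, -0.042 for RPS13 and -0.029 for the mTOR list. Members higher at the unadjusted p were 0 with a pseudocount of 0.1 FPKM and 2 with no variance moderation, beside 1.86% and 2.09% of all rows.

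Same-numbered libraries showed no common tendency to deviate together (correlations of -0.284, 0.135 and -0.0073). With 3 libraries per label these values are too few to tell whether the numbers pair libraries. With the replicate number as a block, 0 members were higher at the unadjusted p, against 1 without it, beside 2.01% and 1.98% of all rows.

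Leaving out each library in turn, the difference in share ran from -0.171 (without WT replicate 1) to 1.13 percentage points (without WT replicate 3), the median of the members from 0.079 to 0.25 (the same libraries), and the subunit ratio difference from -0.00843 to 0.00610, above 0 without WT replicate 2 and, at 0.00043, without leptin replicate 3. Members higher at the unadjusted p ran from 0 to 3 (without WT replicate 3, beside 5.74% of all rows), members higher without overlap from 4 to 27 (without WT replicate 3, beside 20.7% of all rows), and members lower without overlap from 0 to 1 (without WT replicate 1, beside 7.0% of all rows). The log2 difference ran from -0.048 to 0.29 for RPL22L1, from -0.30 to 0.13 for RPLP2, from -0.050 to 0.070 for RPS13, from -0.098 to 0.67 for RPS23 and from -0.041 to 0.15 for RPS4X. List medians ran from -0.0098 to 0.16 for elongation, from -0.016 to 0.11 for mTOR signalling, from 0.018 to 0.16 for initiation, from 0.036 to 0.20 for ribosome-associated, from 0.029 to 0.24 for biogenesis and from 0.11 to 0.29 for mitochondrial ribosomal protein genes.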
